A study of Homo sapiens with 8 samples.

Results

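Mitosis and spindle genes, 59 in all, were followed across 8 Affymetrix expression arrays of human colon cancer cells. The genes were listed by name, and a gene was read from its brightest probe set by mean over all arrays, chosen among the probe sets annotated to that gene alone. All 59 were measured, by 113 probe sets, among 19775 genes on the array. The 8 arrays fall into 4 groups of 2. HT29 parental cells, from an established colorectal adenocarcinoma line, were grown in DMEM with 10% fetal bovine serum. HT29 spheres, labelled as first spheres, were grown in DMEM-F12, a medium listed without serum, with bFGF and EGF at 10 ng/ml each and the N2 Plus supplement. The other two groups were stable lines of SW480, a second colorectal adenocarcinoma line, carrying an empty vector or labelled as expressing the transcription factor Snail. Both were grown in DMEM with 10% serum. Sphere growth and medium changed together, so their contributions cannot be told apart. The labels say neither whether the stable lines are clones nor whether partner arrays hold separate cultures, so p-values reflect only how far partner arrays spread, which may be technical.

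Cells enter mitosis when CDK1 bound to a B-type cyclin is switched on by CDC25 phosphatases, with Polo-like and Aurora kinases acting beside it. Condensin and topoisomerase II shape the chromosomes, kinesin motors build the spindle, and kinetochores attach centromeres to it, while the spindle checkpoint holds back the anaphase-promoting complex until every chromosome is attached. Most of these genes are transcribed late in the cell cycle and are low in cells that have stopped dividing, so as a group they are widely used as markers of proliferation in epithelial and tumour tissue. Their promoters are known for CCAAT boxes, bound by NF-Y, and for the cell cycle genes homology region (CHR). Through the CHR the DREAM complex represses them, and MuvB with B-MYB and FOXM1 activates them.

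The values are log2 expression values from RMA, a method that brings the arrays to a common distribution, and a change is a difference of group means on that scale, given ± SE. Array medians lay between 5.50 and 5.61, and 56 of the 59 genes were above the array median on all 8 arrays. KIF15 and SKA1 lay below it on both sphere arrays, and SGO1 lay below it on 3 arrays. SNAI1, which encodes Snail, read 6.36 and 6.34 on the vector arrays and 6.32 and 6.38 on the arrays labelled Snail, a change of 0.00 ± 0.15 (limma adjusted p = 0.99). The label is therefore not borne out by the probe set of its own gene, and the group is called Snail-labelled throughout. A probe set outside the introduced sequence would not see it. Colon epithelial markers were above the array median for 12 of 12 genes in both HT29 groups and for 9 of 12 in both SW480 groups. Of these 12, 5 rose and 1 fell in spheres, with CEACAM5 up by 4.75 and KRT20 by 1.59 (adjusted p = 1.4e-07 and 0.00019), and their list median was 11.6 in parental cells and 12.3 in spheres. Of markers of other cell types, 1 of 7 fibroblast genes (LUM), 1 of 4 endothelial genes and 1 of 4 leukocyte genes rose in spheres, with the fibroblast list at a median of 5.40 in parental cells and 5.91 in spheres. Of the hybridisation controls, BioC was 1.64 higher on the sphere than on the parental arrays, and the other 3 differed by 0.13 to 0.35. The parental arrays were lowest for BioC, with a mean of 8.59. The means were 10.24 on sphere, 10.20 on vector and 9.74 on Snail-labelled arrays. The part of these differences in the results was not tested.

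Partner arrays correlated at 0.991 across genes in the parental group and at 0.995 in the other 3, yet the mitosis genes differed mostly in 1 direction even between partners. Parental array 1 was above parental array 2 for 57 of 59 of them (all but CCNB2 and NCAPD2), by a median of 0.41, against 52.3% of all genes. Sphere array 2 was above sphere array 1 for 53 of 59, with a median of -0.26 for array 1 minus array 2, against 51.9% of all genes. In the vector group array 1 was above array 2 for 40 of 59, and in the Snail-labelled group array 2 was above array 1 for 44 of 59, with medians for array 1 minus array 2 of 0.05 and -0.09. The genes are therefore not independent of each other within an array, and counts over them are not counts of 59 separate results.

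The mitosis genes were lower in HT29 spheres than in parental cells almost without exception. Of 59, 57 fell, 0 rose and 2 did not pass the test (SGO1 and INCENP), where 31.4% of all genes were called, 12.4% higher and 19% lower. The median change was -1.60 against 0.04 over all genes, and 51 genes fell at least 2-fold, as did 7.08% of all genes. In the Snail-labelled SW480 line few of these genes were called: 5 rose and 1 fell, a called share of 10.2% against 16.2% of all genes (8.91% higher and 7.34% lower), with a median of 0.06. In these bulk samples, fewer dividing cells and less RNA per cell cannot be told apart. Both sphere arrays lay below both parental arrays for 58 of 59 genes, against 30.5% of all genes, and below all other 6 arrays for 58 as well, against 15.3%, with INCENP the exception in each case.

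**Figure D1:**
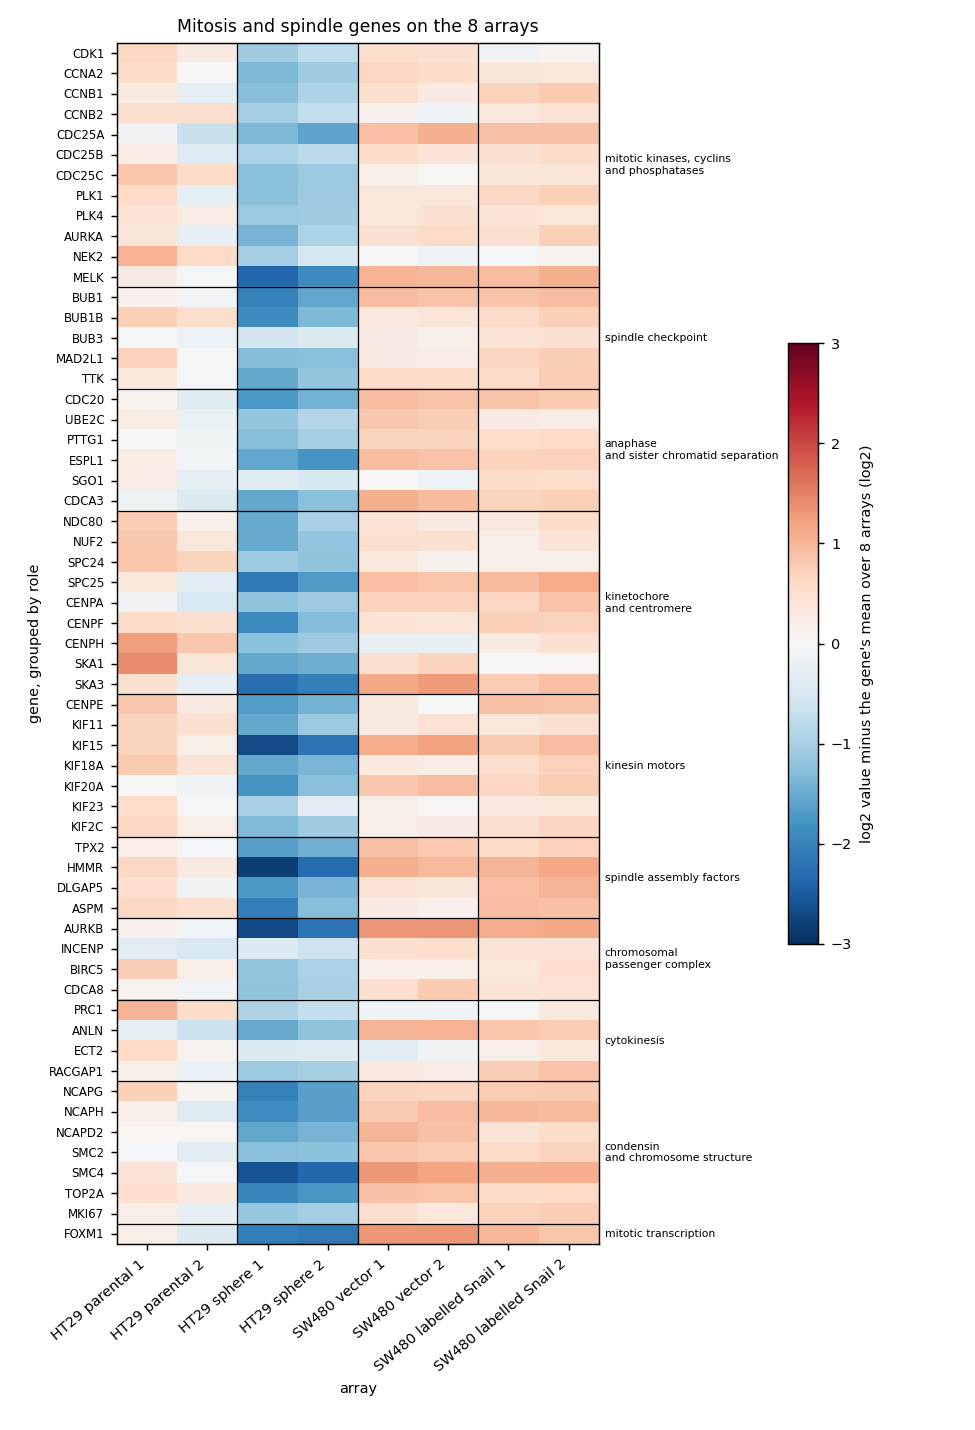
Log2 value of each of the 59 mitosis genes (rows, grouped by role) on each of the 8 arrays (columns), minus the mean of that gene over the 8 arrays, as a colour from blue (low) to red (high). The 2 sphere columns are low in every role, with KIF15, HMMR, AURKB and SMC4 darkest, while the rows of BUB3, SGO1 and INCENP stay pale.

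Promoter sequence shows what many of these genes share beside their function. The searched motifs were a CHR-like motif (TTTGAA, or TTCGAA, on either strand, so that TTCAAA counts too) and CCAAT (or ATTGG on the other strand), in the 250 bases before each RefSeq start (GRCh38.p14). An entry existed for 50 of the 59 genes. The other 9, TTK, RACGAP1, UBE2C, FOXM1, AURKA, BUB3, CENPH, BIRC5 and TPX2, had none and were not searched. At 1 start or more, 27 of 50 genes (54.0%) held a CHR-like motif, against 17.2% of 27305 genes, and 37 (74.0%) held a CCAAT, against 37.0%. Both motifs at 1 start were found in 22 genes (44.0%), against 6.24%. Of 100 further mitotic genes with an entry, from a wider list described below, 31.0% held a CHR-like motif. A CCAAT was held by 59.0% of them and both at 1 start by 19.0%. The 150 bases before the start follow for 4 genes that hold the CHR-like motif close to the start and fell in spheres, 5′ to 3′ in the direction of the gene, with both motifs in capitals. HMMR lies at chr5:163460482-163460631 (plus strand), CCNB2 at chr15:59104996-59105145 (plus strand), KIF11 at chr10:92592980-92593129 (plus strand) and KIF15 at chr3:44761644-44761793 (plus strand).
HMMR: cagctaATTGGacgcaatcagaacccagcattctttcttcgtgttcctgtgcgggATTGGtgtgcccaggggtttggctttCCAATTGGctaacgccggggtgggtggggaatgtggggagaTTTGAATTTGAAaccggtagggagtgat
CCNB2: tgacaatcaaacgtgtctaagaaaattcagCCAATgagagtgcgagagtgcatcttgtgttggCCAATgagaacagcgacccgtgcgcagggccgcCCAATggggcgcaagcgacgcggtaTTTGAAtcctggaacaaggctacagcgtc
KIF11: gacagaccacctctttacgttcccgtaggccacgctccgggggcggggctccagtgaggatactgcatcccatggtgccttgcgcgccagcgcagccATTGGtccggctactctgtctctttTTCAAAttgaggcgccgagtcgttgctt
KIF15: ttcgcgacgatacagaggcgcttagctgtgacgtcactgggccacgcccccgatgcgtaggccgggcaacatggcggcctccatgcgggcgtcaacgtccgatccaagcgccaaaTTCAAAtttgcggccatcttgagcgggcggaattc
In these windows the first base of the CHR-like motif nearest the start stood 22 bases before it in HMMR, 29 in CCNB2, 28 in KIF11 and 35 in KIF15. HMMR held a second copy directly upstream, at 28 bases, and 4 CCAAT motifs, 2 of which overlap in a palindrome at 69 and 66 bases. CCNB2 held 3 CCAAT motifs, at 120, 87 and 54 bases. KIF11 held 1 and KIF15 held 0.

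The letters were present before a gene that did not pass in spheres and absent before genes that fell. The genes shown were chosen after their values were seen. Shown next, in the same notation, are ASPM, which fell in spheres and rose in the Snail-labelled line, INCENP, which passed in neither, and NUF2 and CENPE, which fell in spheres. ASPM lies at chr1:197146670-197146819 (minus strand), INCENP at chr11:62123861-62124010 (plus strand), NUF2 at chr1:163321804-163321953 (plus strand) and CENPE at chr4:103198344-103198493 (minus strand).
ASPM: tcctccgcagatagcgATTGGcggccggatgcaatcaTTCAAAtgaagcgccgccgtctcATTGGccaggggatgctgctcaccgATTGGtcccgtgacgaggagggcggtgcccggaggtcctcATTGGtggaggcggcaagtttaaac
INCENP: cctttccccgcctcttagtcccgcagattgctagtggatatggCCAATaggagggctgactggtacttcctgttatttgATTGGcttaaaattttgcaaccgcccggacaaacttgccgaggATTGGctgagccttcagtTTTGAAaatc
NUF2: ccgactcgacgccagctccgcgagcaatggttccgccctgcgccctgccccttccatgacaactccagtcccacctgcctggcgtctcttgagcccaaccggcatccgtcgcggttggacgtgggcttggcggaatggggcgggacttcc
CENPE: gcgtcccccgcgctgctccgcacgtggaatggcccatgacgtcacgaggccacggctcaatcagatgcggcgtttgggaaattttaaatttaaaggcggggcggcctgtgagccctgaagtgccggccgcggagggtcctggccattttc
INCENP held a CHR-like motif 10 bases before its start and 3 CCAAT motifs, ASPM held a CHR-like motif at 113 bases and 4 CCAAT motifs, and the windows of NUF2 and CENPE held 0 of either. No match says only that these letters are not in this window.

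**Figure D2:**
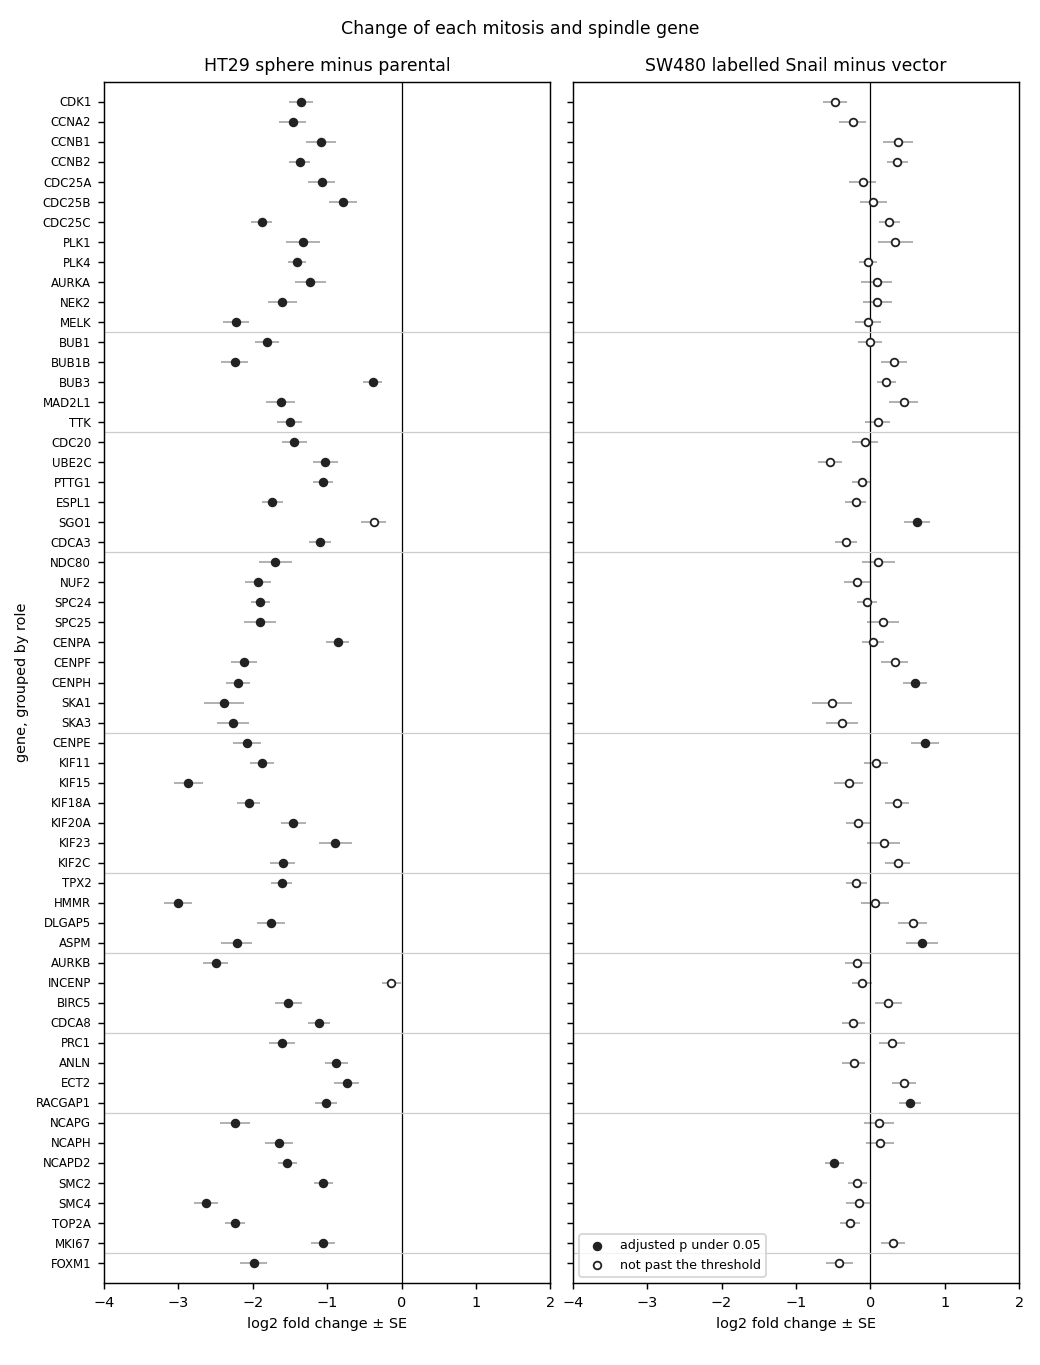
Log2 change ± SE of each of the 59 mitosis genes (rows, grouped by role) in HT29 spheres against parental cells (left) and in the Snail-labelled SW480 line against the vector line (right). Filled points passed an adjusted p under 0.05. In spheres 57 points are filled, all left of 0 from -3.01 (HMMR) to -0.39 (BUB3), while on the right 6 are filled, between -0.49 (NCAPD2) and 0.74 (CENPE).

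Among the 12 mitotic kinases, cyclins and phosphatases all fell in spheres, by a median of -1.36. CDK1, the kinase that drives entry into mitosis, read 11.12 and 10.74 in parental cells, 9.43 and 9.73 in spheres, 10.97 and 10.95 in vector cells and 10.39 and 10.57 in Snail-labelled cells. The sphere arrays were lowest and the 3 other groups lay together above them, and CDK1 fell by 1.35 ± 0.16 (adjusted p = 0.00013), 2.55-fold lower. Its cyclin partner CCNB1 read 10.82 and 10.25 in parental cells and 9.27 and 9.63 in spheres and fell by 1.08 ± 0.20 (adjusted p = 0.002). PLK1, the Polo-like kinase of mitotic entry and spindle poles, read 9.58 and 8.70 in parental cells and 7.74 and 7.90 in spheres. Its parental arrays were further apart than its sphere arrays, and both were above them, and it fell by 1.32 ± 0.23 (adjusted p = 0.0014). AURKA, the centrosomal Aurora kinase, read 10.97 and 10.37 in parental cells and 9.22 and 9.66 in spheres and fell by 1.23 ± 0.21 (adjusted p = 0.0013).

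The largest fall of this role was that of MELK, a kinase of dividing cells, which read 9.78 and 9.51 in parental cells and 7.17 and 7.66 in spheres and fell by 2.23 ± 0.17 (adjusted p = 8.5e-06). CDC25C, a phosphatase that activates CDK1, fell by 1.88 ± 0.14 (adjusted p = 6.7e-06). The smallest was that of CDC25B, another CDC25 phosphatase, at 10.55 and 9.93 in parental cells and 9.38 and 9.51 in spheres. Its groups did not overlap, and it fell by 0.79 ± 0.19 (adjusted p = 0.0083). Without sphere array 1 CDC25B did not pass (-0.73, adjusted p = 0.065). CCNA2, CCNB2, CDC25A, PLK4 (the kinase of centriole duplication) and NEK2 (a centrosomal kinase) fell by between 1.07 and 1.60.

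The spindle checkpoint fell as a whole, 5 of 5 genes, with a median of -1.63 and with BUB3, on its brightest probe set, nearest 0. BUB1B, which encodes the checkpoint inhibitor BUBR1, read 10.16 and 9.97 in parental cells and 7.55 and 8.09 in spheres and fell by 2.25 ± 0.18 (adjusted p = 9.1e-06), 4.74-fold. BUB1, the checkpoint kinase of the kinetochore, read 9.09 and 8.88 in parental cells, 6.94 and 7.41 in spheres, 9.90 and 9.83 in vector cells and 9.83 and 9.88 in Snail-labelled cells. Both sphere arrays were below all others, and BUB1 fell by 1.81 ± 0.16 (adjusted p = 2.2e-05). MAD2L1, which encodes the checkpoint protein MAD2, and TTK, which encodes the kinase MPS1, fell by 1.63 and 1.50. BUB3, the adaptor that carries BUB1 and BUBR1, read 11.16 and 11.06 in parental cells, 10.66 and 10.78 in spheres, 11.47 and 11.38 in vector cells and 11.60 and 11.67 in Snail-labelled cells. Its sphere arrays were lowest too, but only by a small step, and it fell by 0.39 ± 0.12 (adjusted p = 0.035), 1.31-fold. Other BUB3 probe sets fell further: of its 6, the third and the fourth in brightness fell by 0.95 (adjusted p = 0.00055) and by 0.97 (adjusted p = 0.00068), and the second stood at -0.45 (adjusted p = 0.053). On the brightest probe set the call was lost in 7 of 8 fits that left out 1 array, and with arrays centred on their medians (-0.27, adjusted p = 0.13).

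Of 6 genes of anaphase and sister chromatid separation, 5 fell, with a median of -1.08. ESPL1, which encodes the cohesin-cutting protease separase, read 9.22 and 8.92 in parental cells and 7.44 and 7.22 in spheres and fell by 1.74 ± 0.14 (adjusted p = 1.2e-05). CDC20, the activator of the anaphase-promoting complex that the checkpoint restrains, read 10.32 and 9.86 in parental cells and 8.50 and 8.80 in spheres and fell by 1.44 ± 0.17 (adjusted p = 0.00011). UBE2C, the ubiquitin-conjugating enzyme of that complex, PTTG1 (securin, the inhibitor of separase) and CDCA3 fell by 1.03, 1.06 and 1.10. The probe set of PTTG1, which has near-identical copies in the genome, carries the suffix for probes that can match other transcripts, so its value is uncertain. The brightest probe sets of BUB3, CENPA, CENPH, SKA1 and FOXM1 carry the same suffix, and the same caution holds for them. SGO1, the shugoshin that protects centromeric cohesion, read 6.02 and 5.50 in parental cells and 5.45 and 5.33 in spheres and did not pass, at -0.38 ± 0.17 (adjusted p = 0.13). The other probe set of SGO1 fell by 1.61 (adjusted p = 0.00028), so its probe sets disagreed.

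All 9 kinetochore and centromere genes fell, with a median of -1.93, among them the 4 subunits of the NDC80 complex, the main microtubule anchor of the kinetochore. NDC80 itself read 9.75 and 9.15 in parental cells, 7.48 and 8.02 in spheres, 9.41 and 9.27 in vector cells and 9.33 and 9.56 in Snail-labelled cells. Its sphere arrays were below all others, and it fell by 1.70 ± 0.22 (adjusted p = 0.00023). NUF2, SPC24 and SPC25 fell by 1.93, 1.90 and 1.90. The second probe set of SPC24 went the other way, at 0.49 (adjusted p = 0.027), and was the only one of 113 to rise. SKA1 and SKA3 belong to the complex that tracks microtubule ends beside NDC80. SKA1 read 8.06 and 7.01 in parental cells and 5.12 and 5.18 in spheres, with the widest gap between parental arrays of all 59 genes, and fell by 2.38 ± 0.27 (adjusted p = 8.3e-05). SKA3 fell by 2.26 ± 0.21 (adjusted p = 3e-05).

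CENPH, a subunit of the constitutive inner kinetochore, fell by 2.20 and CENPF, a large protein of the outer kinetochore, by 2.12. CENPA, the histone H3 variant that marks centromeres, had the smallest fall of this role. It read 8.36 and 7.99 in parental cells, 7.26 and 7.37 in spheres, 9.15 and 9.16 in vector cells and 9.08 and 9.31 in Snail-labelled cells. Neither sphere array reached the lowest parental array, and CENPA fell by 0.86 ± 0.15 (adjusted p = 0.0015), 1.81-fold.

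All 7 kinesin motors fell, with a median of -1.88. KIF15, a motor that backs up KIF11 in keeping the spindle bipolar, read 7.92 and 7.42 in parental cells, 4.57 and 5.03 in spheres, 8.35 and 8.44 in vector cells and 8.03 and 8.18 in Snail-labelled cells. Its sphere arrays were far below the rest, and it fell by 2.87 ± 0.20 (adjusted p = 3.9e-06), 7.31-fold. KIF11, the motor that pushes spindle poles apart, read 9.42 and 9.21 in parental cells, 7.23 and 7.65 in spheres, 9.02 and 9.18 in vector cells and 9.10 and 9.24 in Snail-labelled cells and fell by 1.88 ± 0.16 (adjusted p = 1.7e-05). Both motors were lowest on the 2 sphere arrays. CENPE, the kinetochore motor that aligns chromosomes, fell by 2.08, KIF18A, which damps their movements, by 2.05, KIF2C, which disassembles microtubules, by 1.60, and KIF20A, a motor of the central spindle, by 1.46. KIF23, the motor subunit of centralspindlin, which is needed to divide the cell, read 9.60 and 9.03 in parental cells and 8.12 and 8.73 in spheres and fell by 0.89 ± 0.22 (adjusted p = 0.011). It did not pass without parental array 1 (-0.60, adjusted p = 0.085) or sphere array 1 (-0.58, adjusted p = 0.11).

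The 4 spindle assembly factors fell with a median of -1.99 and held the largest fall of all. HMMR, which encodes a microtubule-bound protein of the spindle poles, read 10.05 and 9.69 in parental cells, 6.59 and 7.13 in spheres, 10.51 and 10.41 in vector cells and 10.45 and 10.58 in Snail-labelled cells. The sphere arrays lay more than 2 log2 units under every other array, and HMMR fell by 3.01 ± 0.19 (adjusted p = 2.3e-06), 8.05-fold. ASPM, which focuses spindle poles, read 9.86 and 9.74 in parental cells and 7.20 and 7.97 in spheres and fell by 2.22 ± 0.21 (adjusted p = 3e-05). DLGAP5, a protein of the spindle fibres that hold kinetochores, fell by 1.76 ± 0.19 (adjusted p = 7.4e-05). TPX2, the activator of AURKA on the spindle, had the smallest fall of the role at 11.03 and 10.79 in parental cells and 9.20 and 9.39 in spheres, and it fell by 1.61 ± 0.14 (adjusted p = 1.7e-05).

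**Figure D3:**
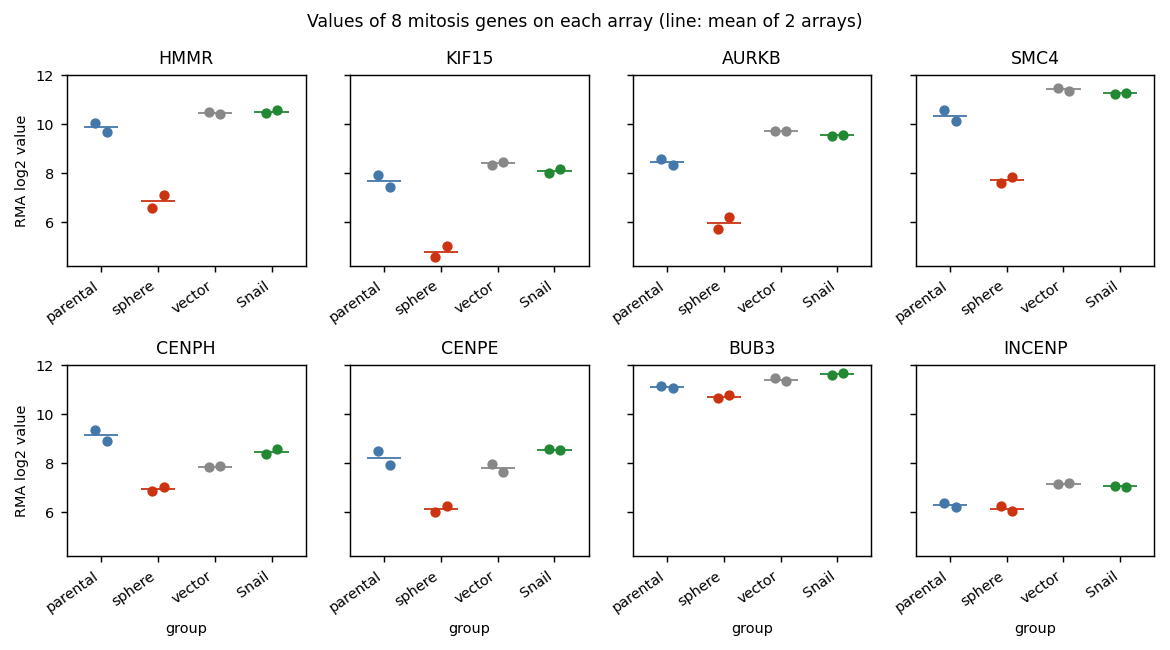
RMA log2 value (vertical axis) of HMMR, KIF15, AURKB, SMC4, CENPH, CENPE, BUB3 and INCENP on each array, by group (horizontal axis, with Snail for the Snail-labelled line). Points are arrays and lines are means of 2 arrays. The sphere points lie below all others in each panel but that of INCENP, where they overlap the parental points, and by a small step in that of BUB3.

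The chromosomal passenger complex, which corrects faulty attachments, was split in its calls. AURKB, its kinase, read 8.59 and 8.34 in parental cells, 5.73 and 6.20 in spheres, 9.72 and 9.74 in vector cells and 9.54 and 9.57 in Snail-labelled cells. Its sphere arrays were lowest and its SW480 arrays highest, and it fell by 2.50 ± 0.17 (adjusted p = 3.4e-06) in spheres, 5.65-fold. The second probe set of AURKB, at -0.66, did not pass (adjusted p = 0.076). BIRC5 (survivin) and CDCA8 (borealin), which target the complex to centromeres, fell by 1.52 and 1.11. INCENP, the scaffold of the same complex, read 6.37 and 6.23 in parental cells, 6.27 and 6.05 in spheres, 7.16 and 7.20 in vector cells and 7.08 and 7.05 in Snail-labelled cells. It was the only member whose HT29 groups overlapped, and its change was -0.14 ± 0.13 (adjusted p = 0.47). The only probe set of INCENP read little above the array medians of 5.50 to 5.61 in HT29 cells. Whether the split lies in the gene or in this probe set was not tested. The fall of AURKB was therefore the largest in the complex and the change of INCENP the smallest of all 59 genes.

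All 4 genes of cytokinesis fell, with the smallest median of the roles at -0.95. PRC1, which bundles microtubules of the central spindle, read 11.27 and 10.80 in parental cells and 9.32 and 9.53 in spheres and fell by 1.61 ± 0.18 (adjusted p = 7.3e-05). RACGAP1, the partner of KIF23 in centralspindlin, and ANLN (anillin, a scaffold of the contractile ring) fell by 1.02 and 0.88. ECT2, which activates RhoA at the site of division, read 10.84 and 10.35 in parental cells and 9.84 and 9.88 in spheres. Its groups did not overlap, and it fell by 0.74 ± 0.17 (adjusted p = 0.0068).

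Condensin and chromosome structure genes fell at least 2-fold in 7 of 7 cases, with a median of -1.65. SMC4, an ATPase subunit, read 10.57 and 10.12 in parental cells, 7.59 and 7.84 in spheres, 11.48 and 11.37 in vector cells and 11.25 and 11.29 in Snail-labelled cells. Both sphere arrays were more than 2 log2 units under the parental arrays, and SMC4 fell by 2.63 ± 0.16 (adjusted p = 2.3e-06), 6.17-fold. SMC2, the other ATPase subunit, read 8.50 and 8.25 in parental cells and 7.31 and 7.34 in spheres and fell by 1.05 ± 0.13 (adjusted p = 0.00016), 2.07-fold. Other probe sets gave -2.09 and -0.37 for SMC4 and -1.35 for SMC2, and the difference between the subunits was not tested. The non-SMC subunits NCAPG, NCAPH and NCAPD2 fell too, with changes of -2.24, -1.65 and -1.54. TOP2A, the topoisomerase that untangles sister chromatids, read 11.79 and 11.58 in parental cells, 9.34 and 9.55 in spheres, 12.17 and 12.12 in vector cells and 11.86 and 11.89 in Snail-labelled cells and fell by 2.24 ± 0.13 (adjusted p = 1.9e-06), the lowest adjusted p of the 59 genes. MKI67, which encodes the Ki-67 antigen on the surface of mitotic chromosomes, read 9.93 and 9.50 in parental cells, 8.60 and 8.71 in spheres, 10.25 and 10.06 in vector cells and 10.43 and 10.48 in Snail-labelled cells and fell by 1.06 ± 0.16 (adjusted p = 0.00055). FOXM1, a transcription factor of late cell cycle genes, read 9.60 and 9.01 in parental cells, 7.35 and 7.29 in spheres, 10.74 and 10.76 in vector cells and 10.42 and 10.25 in Snail-labelled cells. Its sphere arrays were lowest and its SW480 arrays highest, and it fell by 1.99 ± 0.18 (adjusted p = 2.3e-05).

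Leaving out 1 HT29 array left the fall in place: 54 to 58 genes were called and the median ran from -1.81 (without parental array 2) to -1.38 (without parental array 1). It was -1.51 with the arrays quantile-normalised again and -1.48 with each array centred on its median, a setting that moved the median of all genes from 0.04 to 0.16. Over all 113 probe sets of the 59 genes, 93 fell and 1 rose.

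In the Snail-labelled SW480 line few genes were called in the fit to all 8 arrays, whose spread is shared with the HT29 arrays. The genes that rose, 5 in all and each by less than 2-fold, were CENPE, ASPM, SGO1, CENPH and RACGAP1. CENPE read 7.99 and 7.67 in vector cells and 8.57 and 8.55 in Snail-labelled cells. Both Snail-labelled arrays were higher, and CENPE rose by 0.74 ± 0.19 (adjusted p = 0.026), 1.67-fold. ASPM read 9.48 and 9.39 in vector cells and 10.15 and 10.11 in Snail-labelled cells and rose by 0.69 ± 0.21 (adjusted p = 0.049). The second brightest probe set of ASPM gave -0.00 (adjusted p = 0.99), so the call rests on the brightest alone. SGO1 read 5.81 and 5.62 in vector cells and 6.35 and 6.33 in Snail-labelled cells and rose by 0.62 ± 0.17 (adjusted p = 0.033), with the second probe set at -0.23 (adjusted p = 0.57). CENPH read 7.86 and 7.88 in vector cells and 8.37 and 8.57 in Snail-labelled cells and rose by 0.60 ± 0.16 (adjusted p = 0.03). RACGAP1 read 10.21 and 10.12 in vector cells and 10.64 and 10.76 in Snail-labelled cells and rose by 0.54 ± 0.15 (adjusted p = 0.032).

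Only NCAPD2, the condensin I subunit, fell, reading 10.00 and 9.87 in vector cells and 9.37 and 9.53 in Snail-labelled cells. It fell by 0.49 ± 0.13 (adjusted p = 0.029). Arrays of the 2 lines did not overlap for 24 of the 59 genes (40.7%) with Snail-labelled above vector, against 31.2% of all genes. With Snail-labelled below they did not overlap for 23 (39.0%), against 29.2%. The members were thus apart more often than genes in general, in either direction. At an unadjusted limma p under 0.05, 15 of the 59 differed, where 5789 of all 19775 genes did. Of the regulators of entry, CDK1 had the largest change at -0.48 ± 0.16 (adjusted p = 0.074), and CCNB1, PLK1 and AURKA stood at 0.37, 0.34 and 0.08, none past the threshold. UBE2C, at -0.54, did not pass. MAD2L1 had the largest change of the checkpoint genes at 0.45 ± 0.20 (adjusted p = 0.16), and BIRC5 the largest rise of the passenger complex at 0.24 ± 0.18 (adjusted p = 0.43). BUB1, NDC80, KIF11, AURKB, TOP2A, MKI67, BUB3 and FOXM1 ran from -0.42 (FOXM1) to 0.30 (MKI67), all short of the threshold.

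The balance of rises and falls varied with the processing, from 3 higher and 3 lower with the mean of all probe sets to 5 and 3 with quantile normalisation and 8 and 5 with each line alone. The count of 6 depended on single arrays: 1 gene (CENPE) was called without vector array 1, 0 without vector array 2, Snail-labelled array 1 or Snail-labelled array 2, and 12 without either parental array, through the shared estimate of spread. Without 1 SW480 array the median change of the 59 genes ran from -0.01 to 0.12. Ribosomal RNA controls were higher on the Snail-labelled arrays, 18S by 1.40 and 28S by 0.94, each a mean of 3 probe sets, and the 4 hybridisation controls were lower, with differences from -0.46 to -0.26. Their part in these changes was not tested.

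The sphere change differed from the Snail-labelled change for nearly all of the genes. In a test of the difference itself, 57 of 59 genes were lower by the sphere comparison than by the SW480 comparison, where 27.5% of all genes differed (10.6% higher and 16.9% lower), with a median of -1.70. Of these, 47 differed by at least 2-fold, where 1918 of all 19775 genes were lower by as much. HMMR had the largest difference at -3.07 ± 0.26 (adjusted p = 3.5e-05), followed by ASPM at -2.91 ± 0.30 (adjusted p = 8.4e-05) and CENPE at -2.81 ± 0.27 (adjusted p = 6.2e-05). The latter pair fell in spheres and rose in the Snail-labelled line, by the values given above. CDK1 differed by -0.87 ± 0.23 (adjusted p = 0.018) and BUB3 by -0.60 ± 0.17 (adjusted p = 0.027). UBE2C and INCENP did not pass, at -0.48 ± 0.23 (adjusted p = 0.16) and -0.03 ± 0.18 (adjusted p = 0.94). With quantile normalisation or centring on array medians, 52 genes passed, with 1 of the 59 differences above 0.

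**Figure D4:**
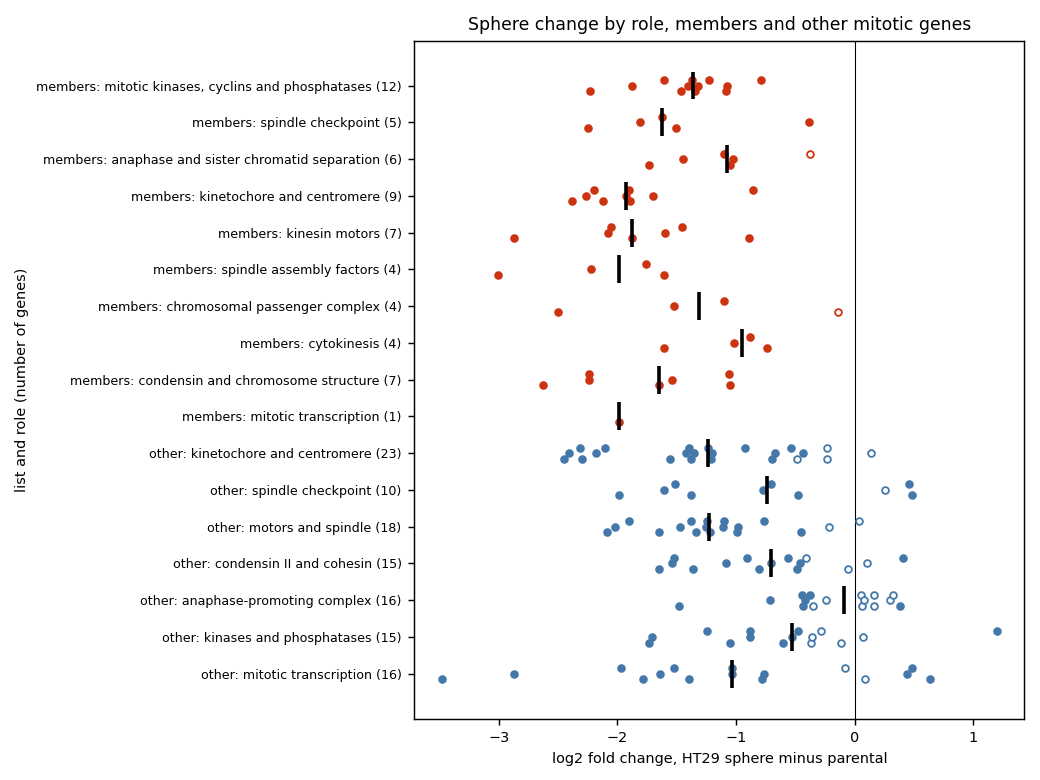
Log2 change in HT29 spheres against parental cells (horizontal axis) for each of the 59 mitosis genes (red, marked members) and of 113 other mitotic genes (blue, marked other), by role. Filled points passed an adjusted p under 0.05 and black lines are medians. The anaphase-promoting complex is centred near 0 (median -0.09), and the medians of the red rows run from -1.99 to -0.95.

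The 2 lines in serum also differed from each other. Between SW480 vector and HT29 parental cells, 27 genes were higher in SW480 and 7 lower, 57.6% against 46.1% of all genes. Higher calls made up 45.8% against 22.6% of all genes, and lower calls 11.9% against 23.5%. At least 2-fold, 8 were higher and 1 lower, where 18.9% of all genes passed both limits. The median was 0.39. Both size and balance rested on the parental arrays, which differed by a median of 0.41: without parental array 1 the median was 0.61, with 35 higher and 6 lower, and without parental array 2 it was 0.15, with 22 higher and 11 lower. The vector itself and line of origin cannot be told apart here, and this comparison shares its arrays with the others. Condensin and chromosome structure genes were higher in 6 of 7 cases (median 0.89), the anaphase genes in 5 of 6 (0.79) and the passenger complex in 3 of 4 (0.76). BIRC5, the passenger gene not called, stood at -0.27, but its other probe sets stood at 0.93, 1.82 and 0.99. Kinesins had 2 of 7 higher with a median of -0.21, and the kinetochore genes split into 3 higher and 2 lower. Both vector arrays were above both parental arrays for 31 genes (52.5%), against 39.6% of all genes, and below them for 12 (20.3%), against 32.6%.

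ANLN read 10.10 and 9.75 in parental cells and 11.41 and 11.43 in vector cells and was higher in SW480 by 1.50 ± 0.16 (adjusted p = 2.1e-05). FOXM1 was higher by 1.45 ± 0.18 (adjusted p = 7.7e-05), CDC25A by 1.38 ± 0.18 (adjusted p = 0.00011), CDCA3 by 1.31 ± 0.15 (adjusted p = 3.8e-05) and AURKB by 1.27 ± 0.17 (adjusted p = 0.00011). In each of these the SW480 vector arrays were above both parental arrays. SMC4, SMC2, CENPA and CDC20 were higher by 1.08, 0.99, 0.98 and 1.02, and INCENP by 0.88 ± 0.13 (adjusted p = 0.00024). BUB1 was higher by 0.88 ± 0.16 (adjusted p = 0.0012), TOP2A by 0.46 ± 0.13 (adjusted p = 0.017) and MKI67 by 0.44 ± 0.16 (adjusted p = 0.046). On leaving out 1 array the difference ran from 0.35 to 0.56 for TOP2A and from 0.22 to 0.65 for MKI67. The call of MKI67 did not hold in most of these fits, and that of TOP2A did not hold in all. CENPH went the other way, with 9.37 and 8.93 in parental cells and 7.86 and 7.88 in vector cells, a change of -1.28 ± 0.16 (adjusted p = 9e-05). PRC1, NEK2, CDC25C, ECT2, SPC24 and CCNB2 were lower, with changes from -0.92 to -0.48. CDK1, at 0.03 ± 0.16 (adjusted p = 0.9), and NDC80, at -0.11 ± 0.22 (adjusted p = 0.72), did not pass, nor did CCNB1, PLK1, AURKA, KIF11 and BUB3. INCENP and AURKB, partners in the passenger complex, were both higher in SW480. Between the HT29 groups AURKB passed and INCENP did not, and the difference of their changes was not tested.

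A wider list of 113 measured mitotic genes outside the 59 was lower in spheres as well, 79 fallen (69.9%, against 19% of all genes) and 8 risen (7.08%, against 12.4%), with a median of -0.79. By function, 19 of 23 further kinetochore genes fell (median -1.24) and 16 of 18 further motor and spindle genes (-1.23). Of condensin II and cohesin genes, 11 of 15 fell and 1 rose (-0.71). Of genes listed under the checkpoint, 7 of 10 fell and 2 rose (-0.74). The 2 that rose were the kinases NEK6 and NEK7, placed in this role by the list. The anaphase-promoting complex had 6 of 16 lower (37.5%) and 1 higher (6.25%), with a median of -0.09. Of further kinases and phosphatases 9 of 15 fell and 1 rose (-0.53), and of regulators of mitotic transcription 11 of 16 fell and 3 rose (-1.03). CDC20 and UBE2C, which work with the anaphase-promoting complex, both fell, as given above.

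In this list E2F7, a repressor of the E2F family, read 9.08 and 8.31 in parental cells and 5.03 and 5.39 in spheres and fell by 3.48 ± 0.23 (adjusted p = 3.3e-06), 11.1-fold. Its second probe set stood at -0.20 (adjusted p = 0.44). E2F8, its close relative, fell by 2.87 ± 0.18 (adjusted p = 2.1e-06), KNL1, the kinetochore scaffold for BUB proteins, fell by 2.45 ± 0.18 (adjusted p = 6.1e-06), and CENPK, an inner kinetochore subunit, fell by 2.41 ± 0.20 (adjusted p = 1.1e-05). The rises were led by LATS2, a kinase of the Hippo pathway, which read 9.80 and 9.61 in parental cells and 10.82 and 10.98 in spheres and rose by 1.20 ± 0.14 (adjusted p = 9.8e-05). LIN37, a subunit of the DREAM complex, rose by 0.63 ± 0.15 (adjusted p = 0.0086). E2F4, the E2F of that complex, rose by 0.48 ± 0.12 (adjusted p = 0.013), and NEK7 rose by 0.48 ± 0.13 (adjusted p = 0.019). LIN37 and E2F4 were among the 3 of 16 regulators of mitotic transcription that rose, while 11 fell. The parts of the DREAM complex were not counted apart.

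In the Snail-labelled line 16 genes of the wider list rose and 6 fell, with a median of 0.03. The called share, 19.5%, was near the 16.2% of all genes. NIPBL, the cohesin loader, rose by 1.30 ± 0.13 (adjusted p = 0.00026), and RBL1, which encodes the pocket protein p107, rose by 1.14 ± 0.30 (adjusted p = 0.028). The second probe sets of both did not pass, at 0.24 (adjusted p = 0.33) and 0.21 (adjusted p = 0.69). CENPC, the inner kinetochore protein bound to CENPA, rose by 0.82 ± 0.14 (adjusted p = 0.0029), and TFDP2, a partner of E2F factors, rose by 0.74 ± 0.15 (adjusted p = 0.0074). CENPT, of the inner kinetochore, fell by 1.01 ± 0.15 (adjusted p = 0.0017), but its second probe set stood at 0.04 (adjusted p = 0.92). NEK6, CDC26 (a subunit of the anaphase-promoting complex) and TRIP13 (which recycles MAD2) fell by 0.83, 0.71 and 0.61. Between the lines, 36 were higher (31.9%, against 22.6% of all genes) and 29 lower in SW480 vector cells (25.7%, against 23.5%). PBK, ESCO2, CENPO and MIS18A led the higher ones at 2.28, 1.86, 1.76 and 1.52. NIPBL, RAD21, NEK7 and LIN37 were lower, with changes of -1.98, -1.75, -1.53 and -1.43.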

How the data were processed

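RNA of 8 samples was hybridised to Affymetrix arrays, 1 per sample. The deposited values are log2 expression values made by the authors with RMA, per the submitters' processing notes; its version is not given in the sources used here. RMA gives the arrays a common distribution, so a change in total RNA per cell is not seen.

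Of 54675 probe sets, 62 were controls, 41091 named 1 gene, 1801 several and 11721 none in GEO's platform annotation, and 41037 matched RefSeq by Entrez identifier. Each of 19775 genes was its brightest probe set.

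In R 4.3.3, limma 3.58.1 fitted a mean per group to all 8 arrays, with 4 residual and 6.10 prior degrees of freedom. Tests were two-sided, adjusted by Benjamini-Hochberg over all genes, with a threshold of 0.05. The fit was tested on simulated data. The 59 genes, their roles and the wider list of 117 mitotic genes (113 measured) were chosen with earlier results of these data known, among them the fall of cell cycle genes in spheres, which is no independent support. Genes were named by rule: 12 regulators always, in each role those with the largest and (in spheres) smallest change, all calls up to 12, the extreme differences, and up to 4 rises and 4 falls of the wider list. Alternatives were other probe sets, a filter on dim genes, 2 rescalings, each line alone, array weights, a trended prior, a replicate block and leaving out each array.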

Additional observations from a re-analysis of the deposited data

Results flagged for a closer look

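The sphere change differed from the Snail-labelled change, by the limma test of the difference, for 57 of the 59 mitosis genes. It differed for 77 of the 113 other mitotic genes and for 27.5% of all genes. Among those named, each mitosis gene was more negative in spheres. The differences, sphere change minus Snail-labelled change on the log2 scale, were -0.87 for CDK1, -1.45 for CCNB1, -1.66 for PLK1 and -1.31 for AURKA. They were -2.32 for AURKB, -1.80 for BUB1, -1.81 for NDC80, -1.95 for KIF11, -1.97 for TOP2A and -1.37 for MKI67. BUB3 stood at -0.60 and FOXM1 at -1.57, and HMMR, ASPM and CENPE at -3.07, -2.91 and -2.81. Among the other mitotic genes RBL1 stood at -3.11, E2F7 at -2.84, CENPK at -2.68 and E2F8 at -2.67. LIN37, CDC26, LATS2 and NEK6 went the other way, at 0.85, 0.88, 1.01 and 1.29. For NEK6, a kinase of mitotic spindles, the groups moved in opposite directions, up in spheres by 0.45 (adjusted p = 0.017) and down in the Snail-labelled line, at -0.83 (adjusted p = 0.0017). The comparisons differ in cell line, medium and growth form at the same time, and these cannot be told apart.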

How the results depend on the processing

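In spheres 56 or 57 genes fell and 0 rose under each alternative that kept all arrays, other than the second brightest probe set. That setting gave 52 falls and 1 rise (SPC24). It re-read only the genes with several probe sets, 30 of the 59, and kept the only probe set of the rest. The 6 calls in the Snail-labelled line became 13 with each line fitted alone, 11 with array weights and 11 with a trended prior. The share of all genes called under these settings is not given here. Leaving out 1 array gave 49 to 58 calls for the difference and 26 to 41 between the lines. For the other mitotic genes these ranges were 67 to 83 in spheres, 6 to 27 in the Snail-labelled line, 61 to 82 for the difference and 51 to 72 between the lines, and the second brightest probe set gave 12 Snail-labelled calls against 22. On that probe set 7 calls among the 59 genes turned sign: SPC24 in spheres (0.49), for the difference (0.42) and between the lines (0.45), ASPM (-0.0029) and SGO1 (-0.23) in the Snail-labelled line, CDC25A for the difference (0.075) and ECT2 between the lines (0.22). Of the named other mitotic genes, CENPT turned in the Snail-labelled line (0.038) and E2F7 for the difference (0.001). The causes were not tested. Over 1998 alternatives of single named genes, 98 lost a call, 27 gained one and 16 turned sign with no call on either side. Replicate deviations of different groups correlated between -0.06 and 0.06. No large shift was thus shared by arrays of the same number, but whether a number marks a shared day or batch is not settled. With a replicate block 56 genes were called in spheres, 5 in the Snail-labelled line, 56 for the difference and 34 between the lines. Of the other mitotic genes, 86, 19, 77 and 61 were called. The 2 arrays per group limit the precision throughout.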

Other observations

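Probe sets of 1 gene could differ in how far they fell. The 4 probe sets of MKI67 all fell in spheres, with changes from -2.10 to -1.06, and the brightest, which stands for the gene above, had the smallest change.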
